A study of Mus musculus with 59 samples.

Results

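Livers of mice that ate chow with 10 ppb sodium arsenite mixed into it were compared with livers of mice that ate a purified diet with the same added arsenite. The comparison holds 10 arrays of the 59 in the series, 5 from mice on LRD-5001 (LRD below, replicates B, C, D, E and F) and 5 from mice on AIN-76A (AIN below, replicates A, C, D, E and F). Members were chosen by their titles alone, and all 45037 probe sets other than the array's controls were tested. All animals were male C57BL/6 mice, 6 weeks old, that had 2 weeks to get used to their diet before the arsenite was added for 5 weeks. The other 29 arrays with 5 weeks of exposure held the same diets with no added arsenite, with 10 ppb in drinking water and with 100 ppb in drinking water (4 arrays on AIN at that last level, 5 in every other group). The labels call the arrays of a group biological replicates and name no pooling of animals. The tests take their error from the spread between arrays of a group. The concentrations are what was added, and the arsenic that either diet already held is not given in the sources used here. Food intake, body weight and the hour of tissue collection are not given either.

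AIN-76A is made from purified ingredients, with sugar as the main source of energy, casein as the protein and corn oil as the fat, whereas chow is made from milled grains and legumes and carries the many plant compounds that come with them. The liver turns surplus sugar into fatty acids through a chain of enzymes that is switched on by insulin and by sugar itself. It also clears plant compounds and other foreign chemicals in stages, with oxidation by cytochromes P450, coupling to glutathione, glucuronate or sulfate, and export through membrane transporters. Inorganic arsenic is reduced, methylated and coupled to glutathione in the same organ.

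Levels below are log2 values per probe set, as deposited after robust multi-array averaging (RMA), with 1 probe set taken for each of 18193 genes. A difference is LRD minus AIN on the log2 scale with its standard error (SE), and each rests on 5 arrays against 5. A gene is called where limma's moderated test had a Benjamini-Hochberg adjusted p under 0.05 over all probe sets. Hepatocyte markers had a high mean level on all 10 arrays, although 1 of the 8 measured averaged below 3. The mean log2 level of 8 such markers ran between 11.49 and 11.55 on LRD and between 11.44 and 11.55 on AIN. LRD replicate C and AIN replicate D stood apart from the other 8 arrays, with an upper quartile of all values of 3.84 and 3.94 against 4.08 to 4.29. AIN replicate D also carried RNA that marks fat tissue. Adipoq, the adipocyte hormone adiponectin, was between 1.72 and 1.95 on the 5 LRD arrays, at 7.24 on AIN replicate D and between 1.94 and 2.14 on the other 4 AIN arrays. Resistin, Retn, another adipocyte hormone, was between 2.64 and 2.91 on LRD, at 6.47 on that array and between 2.21 and 2.68 on the other AIN arrays. The muscle filament gene Des was at 3.04 to 3.29 on LRD, at 6.86 on AIN replicate D and at 2.88 to 3.26 on the rest of AIN. Over 8 fat markers the mean level was 4.59 to 4.89 on LRD, 6.39 on AIN replicate D and 4.72 to 4.80 on the other AIN arrays. The summed linear level of these markers overlapped, at 5050 to 8500 on LRD and 3630 to 6360 on AIN. Adipoq and Retn were low on LRD, where that sum was highest, so it describes other members of the list more than these. Because of the fat markers, results are also given without AIN replicate D.

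In all, 133 of 45037 probe sets were called (0.295%), 57 higher (0.127%) and 76 lower (0.169%) on LRD. At an unadjusted p under 0.05 there were 2222, where 5% of all probe sets would be 2252. Counted by gene, 86 of 18193 were called (0.473%), 42 higher (0.231%) and 44 lower (0.242%). The 2 groups of arrays did not overlap for 78 of the 86, and for 2.02% of all genes. The median difference over all genes was 0 and the median SE over probe sets was 0.13. The smallest called difference was 0.36 in size. Without AIN replicate D, 95 probe sets were called, 35 higher and 60 lower, of which 88 were among the 133. The lowest count on leaving out 1 array was 84, without AIN replicate F.

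**Figure D1:**
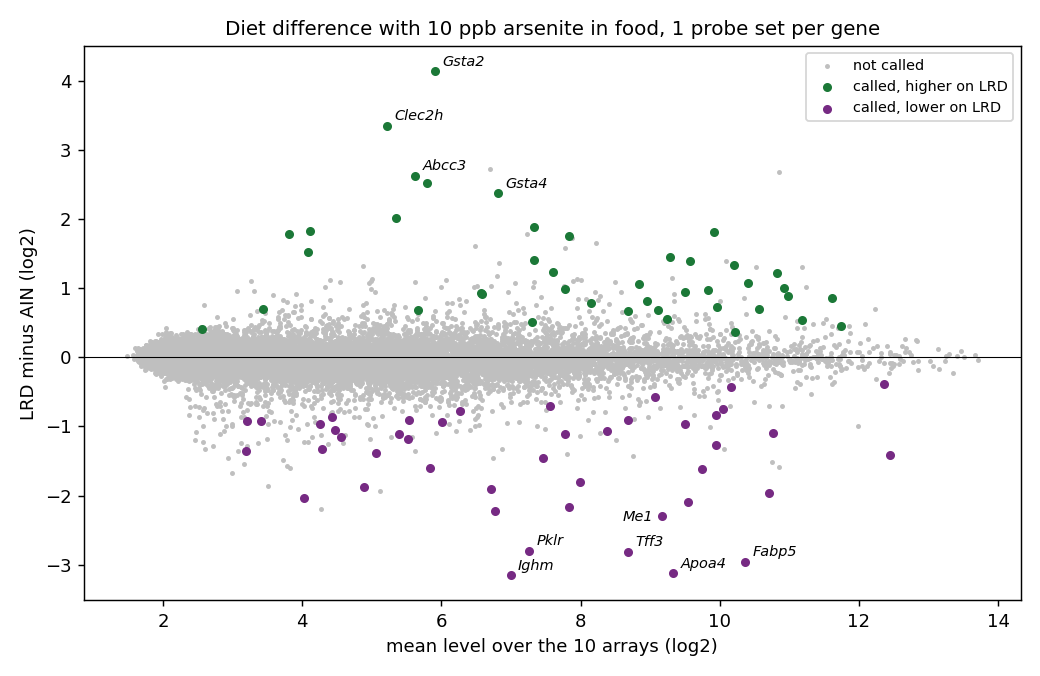
Difference between the diets (LRD minus AIN, log2) against the mean level over the 10 arrays (log2), with 1 point per gene. The 42 called genes above 0 are led by Gsta2 at 4.14 and Clec2h at 3.35, and the 44 below 0 by Ighm at -3.15 and Apoa4 at -3.12.

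Genes that make fatty acids were lower on LRD, and they were the most widely changed of the 25 pathway lists. Of 30 genes of fatty acid and triglyceride synthesis, 12 fell, 0 rose and 18 did not pass, and 29 of the 30 had a difference below 0. The list's median difference was -0.92, where that of all genes was 0. Its mean level per array was 7.81, 7.46, 7.53, 7.35 and 7.16 on LRD, against 8.26, 8.09, 8.85, 8.55 and 8.61 on AIN. The 2 diets did not overlap, and the highest array was AIN replicate D, the one with fat markers. Without it 10 of the 30 fell, with a median of -0.81, and without LRD replicate C as well 9 fell, with a median of -0.78. Adipocytes make fatty acids too, and the part of that RNA in these values was not tested beyond leaving the array out.

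The called falls lay at several steps of the chain from citrate to long fatty acids. Slc25a1, Fads1 and Elovl3 did not pass, and neither did the list's genes of triglyceride assembly, such as Gpam, Dgat1 and Dgat2. Acly, which splits citrate into acetyl-CoA, averaged 8.94 ± 0.38 on LRD and 10.55 ± 0.65 on AIN (SD, n = 5 each), a difference of -1.61 (SE 0.35, adjusted p = 0.027). Of its 5 other probe sets 1 was called as well and 1 had the opposite sign. Leaving out 1 array ended this call in 5 of 10 cases (highest adjusted p = 0.129). Acaca, the acetyl-CoA carboxylase of the cytosol, was at 6.35, 5.80, 5.93, 5.51 and 5.22 on LRD and at 6.97, 6.82, 8.67, 7.53 and 8.33 on AIN. Every LRD array was below every AIN array, by 1.90 on average (SE 0.33, adjusted p = 0.00188). Its relative Acacb, which makes the malonyl-CoA that holds back fatty acid oxidation, fell by 2.22 (SE 0.35, adjusted p = 0.000503). Fasn, the fatty acid synthase, was at 9.27, 8.93, 8.65, 7.89 and 7.75 on LRD and at 9.81, 9.65, 11.65, 10.94 and 10.91 on AIN. The diets did not overlap, though LRD replicate B and AIN replicate C were only a small step apart. The mean difference of -2.09 (SE 0.39, adjusted p = 0.00499) leaves 0.234 of the AIN level on LRD.

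Enzymes that lengthen and desaturate fatty acids fell with them. Elovl6, which lengthens palmitate, fell by 2.17 (SE 0.37, adjusted p = 0.00118), and 1 of its 2 other probe sets had the opposite sign. Elovl5, which lengthens polyunsaturated fatty acids, averaged 9.73 ± 0.57 on LRD and 11.70 ± 0.31 on AIN (SD, n = 5 each), a fall of 1.97 (SE 0.28, adjusted p = 0.000124). Elovl2, which acts on still longer chains, fell by 0.97 (SE 0.18, adjusted p = 0.00513). Scd1, the desaturase that makes oleate, was at 12.23, 11.53, 11.90, 12.01 and 11.05 on LRD, against 13.21, 13.06, 13.20, 13.13 and 13.18 on AIN. The AIN arrays were nearly level with each other, while the LRD arrays spread over more than 1 log2 unit below them (difference -1.41, SE 0.24, adjusted p = 0.00128). Fads2, the delta-6 desaturase, fell by 1.06 (SE 0.24, adjusted p = 0.0338), a call that ended in 9 of 10 cases when 1 array was left out (highest adjusted p = 0.177).

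Me1, the malic enzyme that supplies NADPH, was at 8.98, 7.08, 7.81, 8.33 and 7.94 on LRD and at 9.78, 9.68, 11.15, 9.89 and 11.09 on AIN. All LRD arrays were lower, by 2.29 (SE 0.39, adjusted p = 0.00125). Pgd, the pentose phosphate enzyme that also yields NADPH, fell by 1.11 (SE 0.20, adjusted p = 0.00227). Fabp5, a fatty acid binding protein, was at 8.76, 9.17, 10.03, 7.60 and 8.88 on LRD, against 12.34, 11.89, 11.41, 11.85 and 11.77 on AIN. That was the largest fall of the list, 2.96 (SE 0.39, adjusted p = 3.78e-05), and the diets lay far apart. Pnpla5, a lipase of the patatin family, was close to the floor of the array on LRD with 3.01 ± 0.17 and at 5.04 ± 0.72 on AIN (SD, n = 5 each; difference -2.03, SE 0.34, adjusted p = 0.00106).

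The regulators of this chain did not pass. Srebf1, which encodes the insulin-driven activator SREBP-1, averaged 8.61 ± 0.91 on LRD and 8.69 ± 0.54 on AIN (SD, n = 5 each; difference -0.08, SE 0.42, adjusted p = 1), and its sign turned to 0.03 without AIN replicate D. Mlxipl, which encodes the sugar-driven activator ChREBP, had a difference of -0.38 (SE 0.25, adjusted p = 1). Thrsp, a lipogenic target known as Spot 14, was at 10.06 ± 0.95 and 11.65 ± 0.90 (SD, n = 5 each) on LRD and AIN, a difference of -1.59 that did not pass (SE 0.53, adjusted p = 0.473). Acss2, which makes acetyl-CoA from acetate, had a difference of -1.01 (SE 0.35, adjusted p = 0.524).

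**Figure D2:**
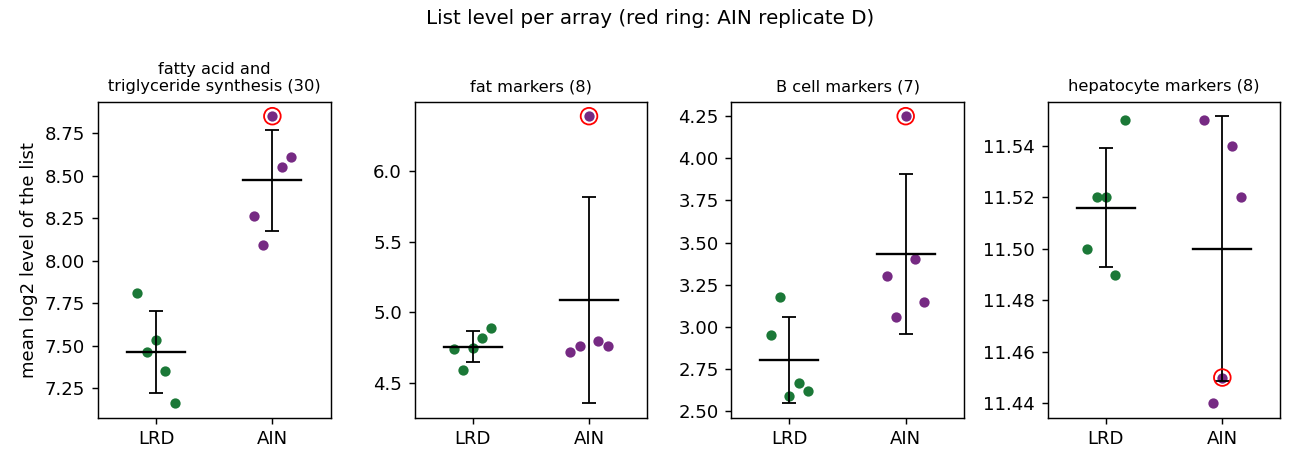
Mean log2 level of 4 gene lists on each array (points), with the group mean and SD (bar and whiskers) for LRD and AIN, and AIN replicate D ringed. The lipogenic list lies between 7.16 and 7.81 on LRD and between 8.09 and 8.85 on AIN, the fat markers reach 6.39 on the ringed array alone, and hepatocyte markers are level.

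Some genes of sugar use were lower as well. Of 17 genes of glucose and fructose use, 3 fell, 0 rose and 14 did not pass, with a median of -0.38. Pklr, the liver's pyruvate kinase, was at 6.92, 5.15, 5.35, 6.20 and 5.68 on LRD, against 8.38, 8.14, 9.16, 8.55 and 9.06 on AIN. The gap between the diets exceeded 1 log2 unit at its narrowest, and the mean difference was -2.80 (SE 0.46, adjusted p = 0.000963). Khk, ketohexokinase, which phosphorylates fructose, was at 9.46, 9.29, 9.26, 9.43 and 9.11 on LRD and at 10.45, 10.31, 10.79, 10.38 and 10.96 on AIN. Both groups were tight and separate (difference -1.27, SE 0.18, adjusted p = 0.000109). Tkfc, which takes up the next step of fructose breakdown, did not overlap between the diets and did not pass (difference -1.33, SE 0.32, adjusted p = 0.0529). It passed in 7 alternatives, among them the arrays that stand apart as a block (adjusted p = 0.00792), quantile normalization (0.0245) and without LRD replicate B (0.0281). Fbp1, the fructose bisphosphatase of gluconeogenesis, fell by a small amount, 0.38 (SE 0.07, adjusted p = 0.00687). Without AIN replicate D these 3 calls held. Outside the lists, Gpd2, the mitochondrial glycerol phosphate dehydrogenase, fell by 1.45 (SE 0.28, adjusted p = 0.00635), and 1 of its 3 other probe sets had the opposite sign.

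The promoters of Khk and Elovl5 hold the letters CACGTG, the E-box that ChREBP, SREBP-1 and the clock's activators are known to bind, and they are shown because both genes fell. The sequences are RefSeq promoters on GRCm38.p6, 5′ to 3′ along the gene's strand, with the E-box in capitals. The first lies at chr5:30921438-30921543 on the plus strand and the second at chr9:77917154-77917259 on the plus strand.
Khk: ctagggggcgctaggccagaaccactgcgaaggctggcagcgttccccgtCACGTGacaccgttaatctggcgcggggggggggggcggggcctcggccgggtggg
Elovl5: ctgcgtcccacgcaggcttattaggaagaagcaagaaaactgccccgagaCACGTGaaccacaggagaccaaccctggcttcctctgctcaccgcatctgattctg
Counted from the gene's start, the E-box begins at position -71 in Khk and at -161 in Elovl5. RefSeq promoters, each from 250 bases before to 50 after the start, were at hand for 68 of the 86 called genes. CACGTG reads the same on both strands. It was in those of 5 of 37 lower genes, 3 of 31 higher genes and 1479 of 14452 genes on the array. Counted by window that is 11.1% of 45 windows of lower genes and 11.1% of 36 of higher genes. The share was 8.72% of the 18109 windows of genes on the array and 7.15% of all 32851. The sterol response element of the LDL receptor gene, searched on both strands, was in none of the windows of called genes. It was in 0.0607% of those of genes on the array and in 0.0913% of all. A match describes letters and is no evidence of binding.

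Some genes of chemical clearance were higher on LRD. Of 21 glutathione transferases 3 rose, 0 fell and 18 did not pass, with 19 of the 21 above 0 and a median of 0.19. Gsta2 was at 9.36, 6.13, 7.29, 8.71 and 8.40 on LRD, against 3.53, 3.51, 3.31, 4.44 and 4.39 on AIN. It was near the floor on AIN, and LRD replicate C, the array that stood apart, was the lowest of its group. The difference was 4.14 (SE 0.52, adjusted p = 1.99e-05). Gsta4, which is known for clearing lipid peroxidation products, was at 8.2, 7.99, 7.5, 8.49 and 7.80 on LRD and at 5.26, 5.03, 5.69, 5.90 and 6.25 on AIN. Its arrays did not overlap (difference 2.37, SE 0.47, adjusted p = 0.00859). Gstt2, of the theta class, rose by 1.89 (SE 0.32, adjusted p = 0.00106), and its relative Gstt3 had a difference of 1.07 that did not pass (SE 0.27, adjusted p = 0.0843), but did without LRD replicate D (0.0496), without both arrays that stand apart (0.0475) and in 4 other alternatives. All 3 calls held without AIN replicate D.

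Among 19 genes that answer to the stress factor Nrf2 or supply glutathione, 3 rose, 2 fell and 14 did not pass. Ephx1, the microsomal epoxide hydrolase, averaged 10.00 ± 0.43 on LRD and 8.56 ± 0.25 on AIN (SD, n = 5 each; difference 1.45, SE 0.24, adjusted p = 0.00106). Cth, which makes the cysteine that glutathione needs, was at 11, 10.42, 10.79, 11.38 and 11.16 on LRD, against 9.70, 9.75, 9.41, 10.10 and 10.36 on AIN. The lowest LRD array, replicate C, was just above the highest AIN array (difference 1.08, SE 0.20, adjusted p = 0.00286). Ugdh, which makes UDP-glucuronate, rose by 1.06 (SE 0.20, adjusted p = 0.00499). The 2 that fell, Me1 and Pgd, make NADPH and are described with the lipogenic genes, and Me1 is a member of both lists.

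Ugdh and Me1 thus changed in opposite directions, while both promoters hold the core letters of the antioxidant response element, TGACNNNGC, to which Nrf2 is known to bind. They are shown in the same manner, with the matches in capitals, from chr5:65435878-65436024 and chr9:86695912-86695970, both on the minus strand.
Ugdh: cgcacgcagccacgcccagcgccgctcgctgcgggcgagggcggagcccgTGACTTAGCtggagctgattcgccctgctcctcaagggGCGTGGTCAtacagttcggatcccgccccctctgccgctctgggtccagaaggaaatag
Me1: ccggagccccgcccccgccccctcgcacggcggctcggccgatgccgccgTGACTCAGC
The second match in Ugdh is the same core on the other strand. Matches begin at positions -132 and -94 in Ugdh and at -6 in Me1, whose letters also contain TGACTCA, the AP-1 motif. Me1 has 2 RefSeq promoters, of which 1 holds the core. Searched on both strands, the core was in promoters of 8 of 31 higher genes, 4 of 37 lower genes and 2334 of 14452 genes on the array. By window that is 25% of those of higher genes and 8.89% of those of lower genes. The share was 13.9% of the windows of genes on the array and 12.4% of all RefSeq promoters.

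A few transporters, esterases and oxidases were higher on LRD too. Abcc3, which exports glucuronides into the blood, was at 7.64, 6.98, 6.42, 7.36 and 6.30 on LRD, against 5.02, 4.01, 3.59, 4.34 and 4.61 on AIN. All LRD arrays were higher (difference 2.63, SE 0.32, adjusted p = 1.33e-05), and the level was 6.18 times that on AIN. Slco1a4, an uptake carrier of organic anions, rose by 2.01 (SE 0.42, adjusted p = 0.0161). These were the 2 that rose of 19 transporters, with 0 that fell, 7 below 0 and a median of 0.13. Their summed linear level overlapped, at 7520 to 9660 on LRD and 8490 to 9260 on AIN. Ces2a, a carboxylesterase, rose by 1.40 (SE 0.29, adjusted p = 0.0159) and Aox1, an aldehyde oxidase, by 1.41 (SE 0.32, adjusted p = 0.0416), the 2 of 17 in their list, which had the highest median of all 25 lists at 0.44. Ugt2b35, a glucuronosyltransferase, was the 1 of 19 conjugation enzymes that rose (difference 0.98, SE 0.21, adjusted p = 0.0216). Akr1c19, an aldo-keto reductase, rose by 1.76 (SE 0.35, adjusted p = 0.00829). Without AIN replicate D, Slco1a4 (adjusted p = 0.0814), Aox1 (adjusted p = 0.0633) and Ugt2b35 (adjusted p = 0.115) were no longer called, while Abcc3, Ces2a (adjusted p = 0.0285) and Akr1c19 (adjusted p = 0.0488) were. Over the 10 cases with 1 array left out, the call ended in 4 for Slco1a4, 9 for Aox1, 6 for Ugt2b35, 3 for Ces2a, 1 for Akr1c19 and 0 for Abcc3. Without both arrays that stand apart 0 of the 17 genes of the carboxylesterase and aldehyde oxidase list were called, with a median of 0.56. That list also holds Ephx2 and Fmo genes.

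Of 34 cytochromes P450 of families Cyp1 to Cyp4, 3 rose, 0 fell and 31 did not pass, with a median of 0.21. All 3 were of the Cyp2c family, whose members take up drugs, steroids and fatty acids. Cyp2c54 was at 11.17, 10.36, 10.25, 11.29 and 11.01 on LRD, against 8.54, 8.61, 9.40, 9.17 and 9.32 on AIN, with no overlap (difference 1.81, SE 0.40, adjusted p = 0.0284). Cyp2c29 rose by 1.22 (SE 0.28, adjusted p = 0.0416). Cyp2c55 rose by 1.53 (SE 0.33, adjusted p = 0.0274) although LRD replicate C, at 2.92, lay below all 5 AIN arrays. Cyp3a11, the main drug-metabolising P450 of its family, had a larger difference than any of them, and its call depended on the fit. It was at 12.39, 11.65, 12.11, 12.28 and 12.51 on LRD and at 8.73, 9.66, 9.29, 10.17 and 9.68 on AIN, which did not overlap (difference 2.68, SE 0.63, adjusted p = 0.0513). It passed in 7 alternatives, among them the fit of the 2 groups alone (adjusted p = 0.00164), the arrays that stand apart as a block (0.0322) and quantile normalization (0.0371). The receptors known to drive these genes did not pass. Nr1i3, the receptor CAR, had a difference of 1.02 (SE 0.32, adjusted p = 0.334, and 0.0303 with array weights) and Nr1i2, the receptor PXR, of 0.62 (SE 0.26, adjusted p = 0.84). The calls of the 3 P450s each depended on most arrays. Leaving out 1 array ended that of Cyp2c54 in 7 of 10 cases (highest adjusted p = 0.119), of Cyp2c29 in 8 (0.15) and of Cyp2c55 in 8 (0.167). Probe sets of this and the other large families may bind transcripts of near-identical relatives, so the values of single members are uncertain.

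Of 22 retinoid genes 3 rose, 0 fell and 19 did not pass, with 7 below 0 and a median of 0.14. Cyp26a1, which breaks down retinoic acid, was at 7.54, 7.65, 8.07, 6.67 and 5.37 on LRD, against 3.73, 5.46, 3.55, 4.60 and 5.37 on AIN. LRD replicate F was no higher than the top of the AIN group, and the mean difference was 2.52 (SE 0.52, adjusted p = 0.0153). Aldh1a1, which makes retinoic acid, rose by 0.86 (SE 0.19, adjusted p = 0.0335) and its close relative Aldh1a7 by 0.70 (SE 0.15, adjusted p = 0.0207). None of the 3, nor any other of the 22, passed without AIN replicate D (adjusted p = 0.0808 for Cyp26a1, 0.0944 for Aldh1a1 and 0.0914 for Aldh1a7), with differences of 2.27, 0.84 and 0.64. Over all 10 cases with 1 array left out the call ended in 5, 7 and 5.

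**Figure D3:**
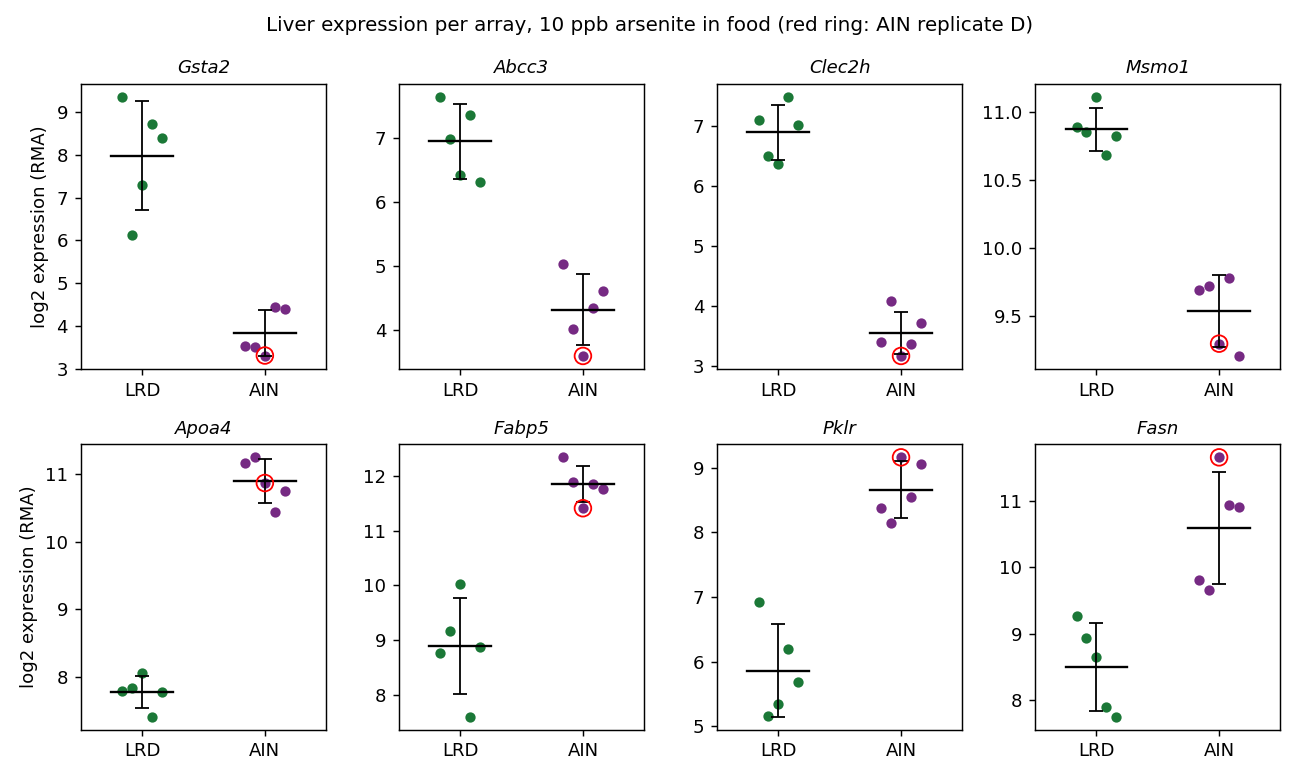
Log2 level of 8 genes on each of the 10 arrays (points), with the group mean and SD (bar and whiskers) for LRD and AIN, and AIN replicate D ringed. No gene shown overlaps between the diets, and the ringed array is the highest for Fasn and Pklr and the lowest for Gsta2, Abcc3, Clec2h and Fabp5 within AIN.

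Some genes of cholesterol synthesis went the other way from those of fatty acid synthesis. In the cholesterol synthesis and uptake list of 20 genes, 3 rose, 0 fell and 17 did not pass, with 16 of 20 above 0 and a median of 0.31. Msmo1, a methyl oxidase late in the pathway, was at 10.89, 10.85, 11.11, 10.68 and 10.82 on LRD, against 9.69, 9.72, 9.30, 9.78 and 9.21 on AIN. The groups were tight and separate (difference 1.33, SE 0.22, adjusted p = 0.00118), though its 1 other probe set had the opposite sign. Hmgcs1, which makes HMG-CoA, averaged 11.42 ± 0.15 on LRD and 10.53 ± 0.10 on AIN (SD, n = 5 each; difference 0.89, SE 0.17, adjusted p = 0.00688). Mvk, the mevalonate kinase, rose by 0.93 (SE 0.21, adjusted p = 0.0361), and not without AIN replicate D (0.91, adjusted p = 0.107), and its call ended in 6 of 10 cases with 1 array left out. Idi1 and Fdft1, of the middle of the pathway, had differences of 0.92 (SE 0.25, adjusted p = 0.156) and 0.82 (SE 0.22, adjusted p = 0.159), with no overlap of arrays in either. Both passed with array weights (adjusted p = 0.0209 and 0.0144) and in the fit of the 2 groups alone (0.0313 and 0.0228). Without both arrays that stand apart 1 of the 20 genes was called, with a median of 0.2, and Hmgcs1 was not (adjusted p = 0.0834). With all 59 arrays in 1 limma fit, Msmo1 (adjusted p = 0.135), Hmgcs1 (0.724) and Mvk (0.457) were not called. Among 16 bile acid genes 1 rose, Acox2, which shortens the side chain (difference 0.56, SE 0.11, adjusted p = 0.00499), and Cyp7a1, the rate-limiting enzyme, had a difference of 1.01 (SE 0.60, adjusted p = 1).

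In the apolipoprotein list of 19 genes, which also holds lipoprotein genes such as Lpl, Lcat, Mttp and Pltp, 2 fell and 0 rose. Apoa4, an apolipoprotein of triglyceride-rich particles, was at 7.79, 7.83, 8.06, 7.41 and 7.78 on LRD, against 11.16, 11.25, 10.87, 10.44 and 10.75 on AIN. No array came near the other group, and the difference of -3.12 (SE 0.27, adjusted p = 2.13e-09) leaves 0.115 of the AIN level. Apoc2, the cofactor of lipoprotein lipase, fell by 0.75 (SE 0.13, adjusted p = 0.00143). In fatty acid oxidation and ketogenesis 0 of 30 genes passed (9 were higher and 2 lower at an unadjusted p under 0.05), with 22 above 0 and a median of 0.24. The smallest p there was that of Acaa1a, a peroxisomal thiolase (difference 0.59, SE 0.15, adjusted p = 0.0969), and Acadm, the medium-chain dehydrogenase, had 0.48 (SE 0.12, adjusted p = 0.114). With the arrays that stand apart as a block 2 of the 30 passed, Acaa1a (adjusted p = 0.0182) and Acadm (0.0412), and without LRD replicate C 1, Acadm (0.0453). Of 24 genes of amino acid breakdown and the urea cycle 3 rose and 0 fell, namely Cth, Oat, the ornithine aminotransferase (difference 1.00, SE 0.20, adjusted p = 0.0114), and Gpt, the alanine aminotransferase (difference 0.67, SE 0.15, adjusted p = 0.0311). With 1 array left out the call ended in 2 of 10 cases for Oat (highest adjusted p = 0.0708), 8 for Gpt (0.132) and 0 for Cth. Ppm1k, the phosphatase that switches on breakdown of branched-chain amino acids, rose by 1.24 (SE 0.23, adjusted p = 0.00329).

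**Figure D4:**
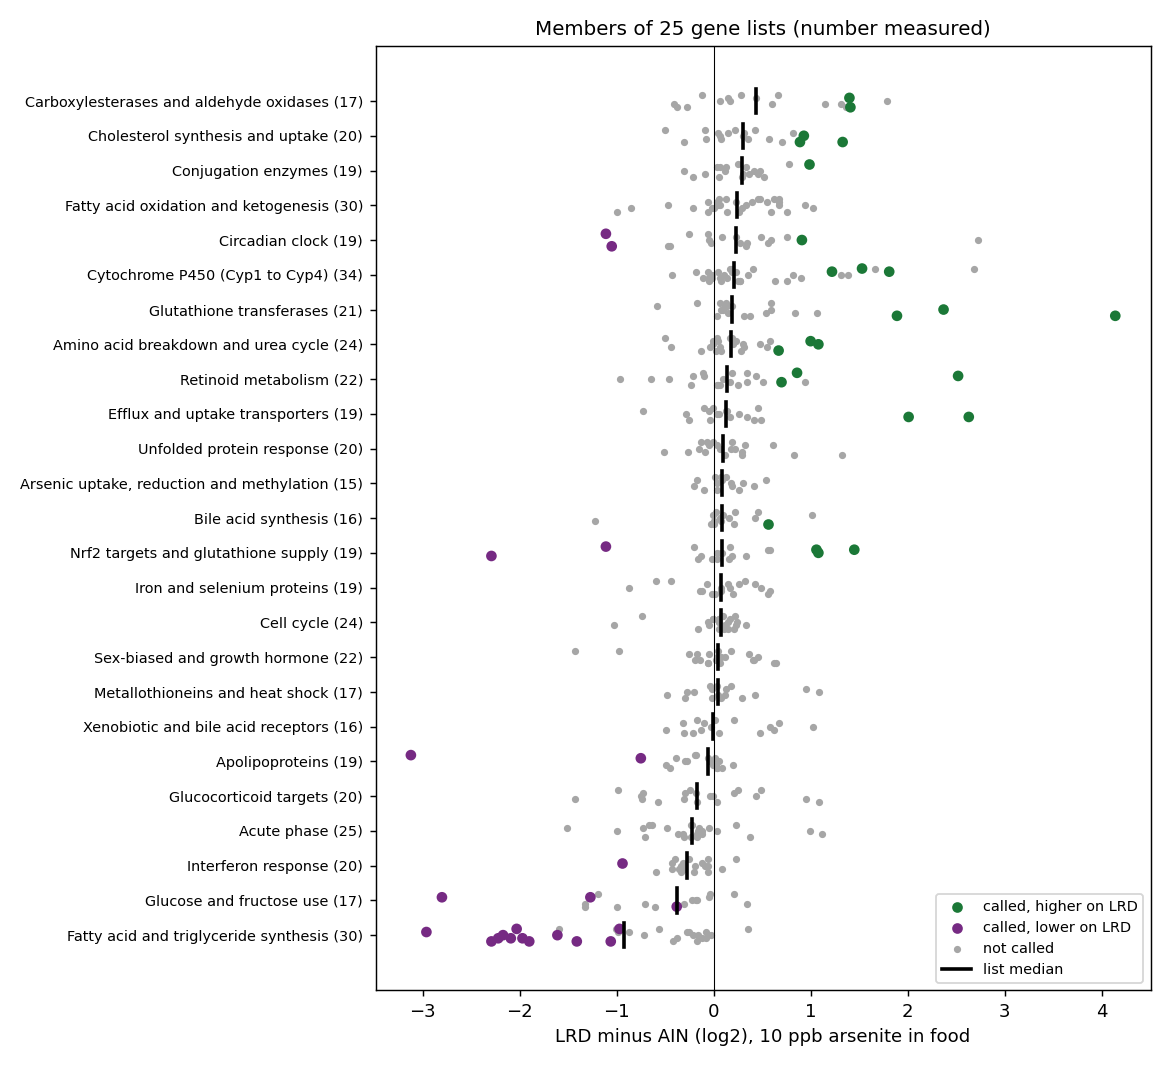
Difference between the diets (LRD minus AIN, log2) for the measured members of 25 gene lists, with the list median as a bar and called genes in colour. The lipogenic list at the bottom has its median at -0.92 and 12 called genes below 0, and the carboxylesterase and aldehyde oxidase list at the top has its median at 0.44.

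Clock genes moved both ways. Of 19, 1 rose, 2 fell and 16 did not pass, with a median of 0.23. Tef, an output factor that binds D-boxes, was at 7.51, 7.03, 6.80, 7.10 and 6.74 on LRD, against 6.25, 5.82, 5.74, 6.67 and 6.16 on AIN, with LRD replicate F and AIN replicate E almost touching (difference 0.91, SE 0.19, adjusted p = 0.021). Arntl, the core activator BMAL1, fell by 1.05 (SE 0.24, adjusted p = 0.0335) and Nfil3, a repressor at D-boxes, by 1.11 (SE 0.23, adjusted p = 0.019). Dbp, a relative of Tef, had the largest difference of the list and did not pass. It was at 9.17, 8.05, 7.41, 8.09 and 7.56 on LRD and at 6.31, 4.13, 3.68, 6.68 and 5.84 on AIN, where the arrays spread over about 3 log2 units (difference 2.73, SE 0.71, adjusted p = 0.118, and 0.0155 with array weights). Without AIN replicate D neither Tef (0.81, adjusted p = 0.107) nor Nfil3 (-0.99, adjusted p = 0.0995) passed, while Arntl did (adjusted p = 0.0285). With each array left out in turn, the call ended in 5 of 10 cases for Tef, 5 for Nfil3 and 6 for Arntl (highest adjusted p = 0.213). Clock genes follow the hour of the day, and whether the groups were collected at the same hours is not given. The promoter of Tef is shown because it holds an E-box, in capitals, through which the clock's activators are known to act, at chr15:81802496-81802601 on the plus strand, with the match at position -127.
Tef: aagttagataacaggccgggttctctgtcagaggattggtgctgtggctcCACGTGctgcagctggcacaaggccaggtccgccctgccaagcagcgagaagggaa
Both of its 2 RefSeq promoters hold the letters. TTATGNAA, the D-box, was in promoters of 0 of 31 higher genes and 1 of 37 lower genes, both strands searched. It was in those of 416 of 14452 genes on the array, or 2.36% of their windows, and in 3.38% of all RefSeq promoters.

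Some of the largest differences lay outside metabolism. Clec2h, a C-type lectin-like gene, was at 7.10, 6.49, 6.36, 7.49 and 7.02 on LRD, against 3.40, 4.07, 3.16, 3.36 and 3.71 on AIN. It was low on AIN alone, though above the array medians of 2.42 to 2.55. The difference was 3.35 (SE 0.32, adjusted p = 3.57e-08), which its 2 other probe sets share in sign and call. Tff3, a trefoil peptide of mucous and bile duct cells, was at 5.79, 7.90, 8.76, 6.90 and 7.03 on LRD and at 10.97, 10.46, 9.69, 9.71 and 9.62 on AIN. LRD arrays spread over about 3 log2 units below the AIN arrays (difference -2.81, SE 0.65, adjusted p = 0.0416). It was the 1 of 8 bile duct markers that fell. The call ended in 9 of 10 cases when 1 array was left out (highest adjusted p = 0.214). Pdzk1ip1, a small membrane protein also known as MAP17, fell by 1.87 (SE 0.27, adjusted p = 0.000149) and the uncharacterised 1810008I18Rik by 1.80 (SE 0.31, adjusted p = 0.00128).

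Ighm, the heavy chain of IgM, was at 6.06, 6.91, 4.62, 4.80 and 4.72 on LRD, against 8.44, 7.61, 10.58, 8.47 and 7.73 on AIN. AIN replicate D was the highest by about 2 log2 units, and the difference was -3.15 (SE 0.56, adjusted p = 0.00219) with it and -2.64 (SE 0.54, adjusted p = 0.0174) without it. The gene's other probe sets did not bear on 1 direction, since 5 of 10 had the opposite sign and 1 was called with the same sign. Among 7 B cell markers Ighm alone passed. The median difference of the 7 was -0.07, with 2 of them above 0. Their mean level was 2.59 to 3.18 on LRD and 3.06 to 4.25 on AIN, and their summed linear level 54.0 to 157 and 226 to 1620. Ighm makes up most of that sum on AIN, so the sum describes this gene more than the list. Of the 7, 6 averaged below 3, close to the floor. Jchain, which joins IgM and IgA units, was at most 2.86 on LRD, and on AIN it was at 5.68 on replicate D and at most 3.41 elsewhere. In bulk liver, fewer cells of a type and less RNA per cell cannot be told apart. Of 20 interferon response genes 1 fell, the antiviral Oas1a (difference -0.94, SE 0.21, adjusted p = 0.0289, lost in 7 of 10 cases with 1 array left out), and 18 of the 20 were below 0. Markers of Kupffer cells (0 of 13 passed) and of stellate cells and fibroblasts (0 of 13) had no call, with 1 and 4 members at an unadjusted p under 0.05, although 13 and 11 of them were below 0, with mean levels of 6.53 to 7.46 and 4.39 to 5.00 on LRD, against 6.82 to 7.55 and 4.78 to 5.38 on AIN.

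Genes that handle arsenic had no call. Of 15 for its uptake, reduction and methylation, 0 passed with limma (4 were higher and 0 lower at an unadjusted p under 0.05). Gsto1, an omega-class transferase that can reduce methylated arsenic, averaged 8.49 ± 0.16 on LRD and 7.95 ± 0.17 on AIN (SD, n = 5 each; difference 0.54, SE 0.16, adjusted p = 0.269). Abcc2, which exports arsenic-glutathione complexes into bile, had a difference of 0.42 (SE 0.12, adjusted p = 0.269), and Ahcy, which clears the by-product of methylation, one of 0.30 (SE 0.08, adjusted p = 0.149). With array weights, the alternative with the most calls, these 3 passed (adjusted p = 0.0083 for Gsto1, 0.0244 for Abcc2 and 0.00798 for Ahcy). As3mt, the arsenic methyltransferase, was at 6.54 ± 0.22 and 6.74 ± 0.15 (SD, n = 5 each) on LRD and AIN, a difference of -0.20 (SE 0.28, adjusted p = 1). Metallothionein and heat shock genes had 0 of 17 called, and 0 at an unadjusted p under 0.05. Mt1, which binds metals and answers to many stresses, was at 8.09, 9.92, 10.48, 9.78 and 6.93 on LRD and at 10.13, 8.24, 7.66, 7.32 and 6.40 on AIN. Both groups spread over 3 log2 units or more, and the difference of 1.09 had an SE of 1.05. The acute phase, unfolded protein response, cell cycle, glucocorticoid target, sex-biased, and iron and selenium lists had 0 called of 25, 20, 24, 20, 22 and 19, as did the xenobiotic receptors with 0 of 16. Between 1 and 5 members of each had an unadjusted p under 0.05.

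Setting the food level beside the other exposures asks whether the diet difference depended on the arsenite given with it. These comparisons share no arrays with the one described, but all use 1 estimate of spread per probe set. Of the 86 called genes, 85 had the same sign in mice with no added arsenite, 84 with 10 ppb in water and 79 with 100 ppb in water, where 58.8%, 55.2% and 50.5% of all 18193 genes had the same sign as at the food level. Of the 86, 56, 56 and 44 were called there too, and of all genes 0.89%, 0.539% and 3.12% were called at those exposures. Over all 18193 genes the differences correlated with those at the food level with a Pearson r of 0.599, 0.508 and 0.309 and a Spearman rho of 0.337, 0.205 and 0.075, a description across genes that are not independent. The rank correlations were well below the Pearson values at all 3 exposures. The 42 higher genes had a median of 0.99 at the food level and of 1.21, 0.92 and 1.03 at the other 3. The 44 lower genes had a median of -1.22 at the food level, of -0.95 with none, of -1.06 with 10 ppb in water and of -0.38 with 100 ppb in water. Both sets were picked by their calls at the food level, which by itself favours larger medians there. Whole clearance lists varied more. Of 21 glutathione transferases, 3 were called higher at the food level and 6, 3 and 13 at the other 3, in the same order. Their medians were 0.19, 0.59, 0.26 and 1.1. Of 34 P450s the counts were 3, 7, 5 and 16, with medians of 0.21, 0.29, 0.3 and 0.71. The Nrf2 list had a median of 0.09 at the food level and 0.17 with 100 ppb in water.

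The tests of these differences made 0 calls in the fit of the 39 arrays, and some in other fits. With limma over 45037 probe sets, 0 passed (0%) for the food level against no arsenite (1128 at an unadjusted p under 0.05), 0 against 10 ppb in water (1624) and 0 against the mean of the other 3 levels (1801). A comparison against 100 ppb in water, added after the values were seen, also had 0 calls (3778 at an unadjusted p under 0.05). That last count depended on single arrays and on the fit. It was 376 without AIN replicate A of the 100 ppb water group, 51 without the 8 of the 39 arrays that stand apart and 84 with those arrays as a block.

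The lipogenic genes were called at some exposures and not at others. Of the 12 that fell at the food level, 5 were called with no arsenite, 11 with 10 ppb in water and 1, Fabp5, with 100 ppb in water. Fasn had a difference of -2.09 (SE 0.39) at the food level, of -1.21 with none, of -2.42 with 10 ppb in water and of -0.40 with 100 ppb in water. On AIN its mean was 10.59 at the food level, 10.05 with none, 10.59 with 10 ppb in water and 8.79 with 100 ppb in water, whereas on LRD it was 8.50, 8.84, 8.17 and 8.39. The AIN mean was the lowest of its 4 values at 100 ppb in water, while the LRD mean stayed within 1 log2 unit. Khk had differences of -1.27, -0.93, -1.32 and -0.09 in the same order, and its food level stood 1.17 below the 100 ppb water level (SE 0.26, adjusted p = 0.186). That gap passed with the arrays that stand apart as a block (-1.18, adjusted p = 0.0398), with array weights (-1.26, adjusted p = 0.0164) and without AIN replicate A of the 100 ppb water group (-1.45, adjusted p = 0.00063), and not in the other alternatives run. Over the 12 genes the difference between those 2 levels had a median of -1.32 and ran between -2.10 and -0.60, with 10 of 12 at an unadjusted p under 0.05 and adjusted p between 0.211 and 0.815. The 12 were picked by their calls at the food level, which by itself favours a larger fall there. Over all 30 genes of the list the median diet difference was -0.92 at the food level and -0.41 with none. It was -0.91 with 10 ppb in water and 0.01 with 100 ppb in water. Of the 12, 7 passed without AIN replicate A of the 100 ppb water group (Acacb, Acly, Elovl5, Fads2, Fasn, Me1 and Pnpla5, median -1.70), 2 with array weights (Acacb and Acly) and 0 in every other alternative run. Against no arsenite the median was -0.58 and against 10 ppb in water 0.03, with 0 of 12 at an unadjusted p under 0.05 in either, and against the mean of the other 3 levels it was -0.64, with 3 of 12.

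**Figure D5:**
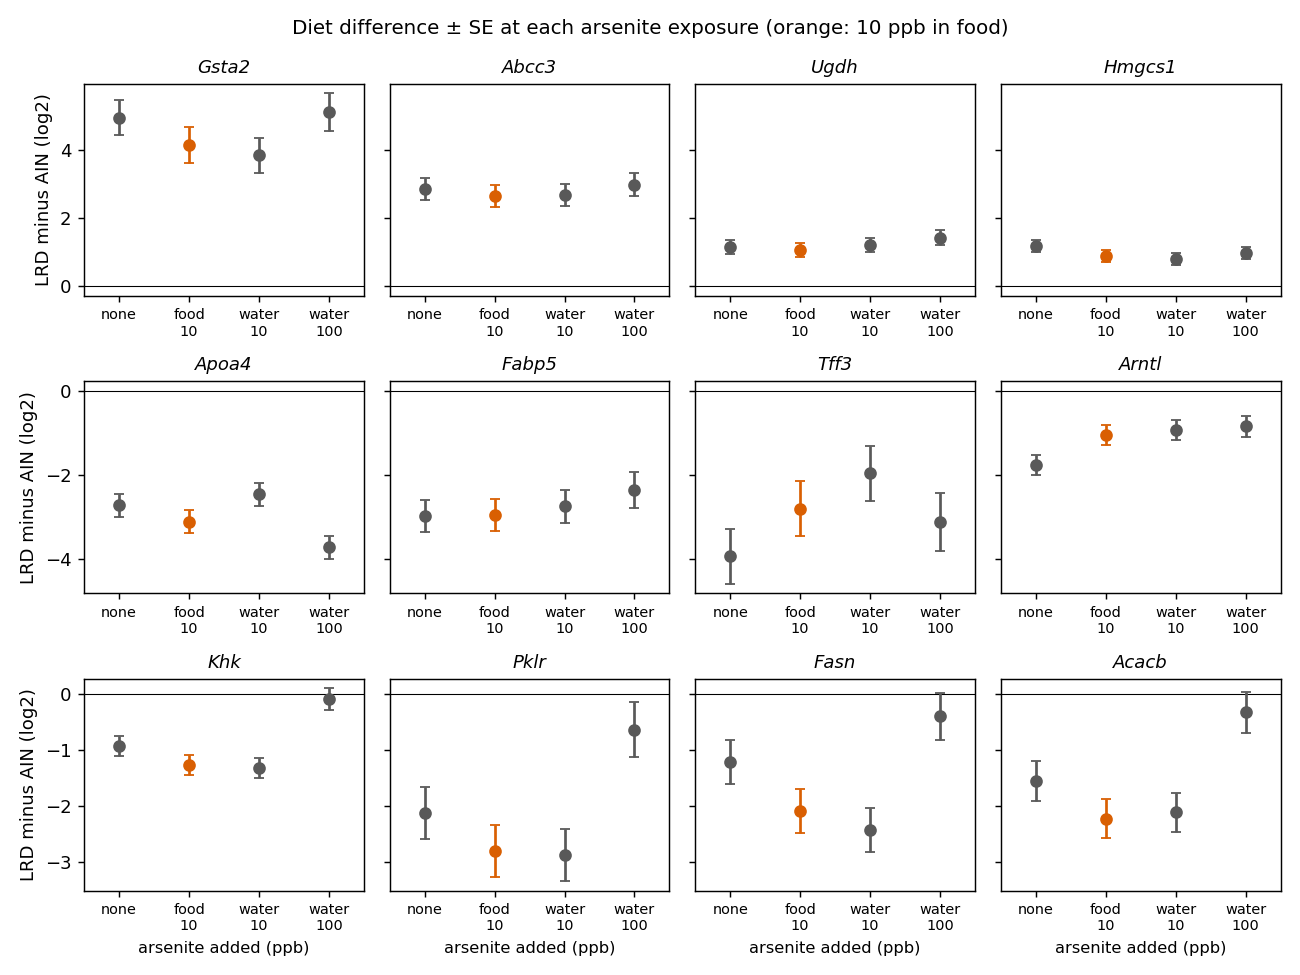
Difference between the diets (LRD minus AIN, log2) ± SE for 12 genes at each arsenite exposure, with 10 ppb in food in orange. Gsta2, Abcc3, Ugdh, Hmgcs1, Apoa4 and Fabp5 keep their sign and rough size at all 4 exposures, and Khk, at -1.27 with food arsenite, is at -0.09 with 100 ppb in water. All 12 are single genes called at the food level, and they do not stand for their lists.

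Genes called at the food level alone numbered 11, among them Oat, Gpd2, Fads2, Dntt and Duox1, and none of them passed the test of the difference from another level with all arrays in the fit. Dntt, a DNA polymerase of developing lymphocytes, was at 2.34, 2.48, 2.66, 2.42 and 2.70 on LRD and at 4.72, 3.69, 2.41, 3.80 and 4.78 on AIN, where replicate D alone lay within the LRD range (difference -1.36, SE 0.31, adjusted p = 0.0335). With 1 array left out its call ended in 9 of 10 cases, and that of Duox1 in 8. Duox1, a dual oxidase, had the smallest p of all named genes against the other 3 levels. It was at 2.77, 2.86, 2.65, 2.71 and 2.83 on LRD and at 2.33, 2.51, 2.31, 2.29 and 2.35 on AIN, all close to the floor. Its difference was 0.41 (SE 0.09, adjusted p = 0.0426) at the food level, and -0.09, -0.11 and -0.16 at the others. The gap of 0.53 to their mean did not pass (SE 0.11, adjusted p = 0.625). Lpl, the lipoprotein lipase that adipocytes secrete, stood 1.11 below the other levels (SE 0.29, adjusted p = 0.966), and it was at 6.74 to 7.75 on LRD, at 9.25 on AIN replicate D and at 7.08 to 7.80 on the rest of AIN.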

How the data were processed

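Liver RNA was measured on 59 Affymetrix mouse arrays of 45101 probe sets. The deposited values are log2 expression per probe set, made by the authors; the submitters' processing notes name RMA as the method, without its program or settings. Array medians lay between 2.42 and 2.59, and precision is limited by how many arrays a group has. The 64 control probe sets were left out. Of 45037 probe sets 34945 have 1 gene symbol in the platform annotation, 10092 have none or several and stay unnamed, and 34741 were found in RefSeq. A gene is represented by whichever of its probe sets averaged highest over the 59 arrays.

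The 39 arrays exposed for 5 weeks entered 1 fit of group means, made with limma 3.58.1 under R 4.3.3 (lmFit, contrasts.fit, eBayes, 31 residual degrees of freedom), after a check on simulated data, with p adjusted by Benjamini-Hochberg over all probe sets at 0.05. The genes named are, among called genes whose groups do not overlap, the 15 largest rises and the 15 largest falls, up to 6 members of each list with the smallest p, and up to 5 genes per difference of differences. The text names fewer. Genes named outside this rule were chosen after their values were seen: Gpd2, Dntt, Lpl, and members of lists given for their role. Groups, lists, members and tests were chosen with earlier results of these data known. A list is described by its counts and median, with no test. Arrays that stand apart have the lowest score of their group on the first principal component of deviations from group means. It was taken over the brighter probe sets (27.6% of the variance). Every group has 1 such array by definition, 12 in all and 8 among the 39. A block made from them removes spread found in these same values, so calls gained under it are no independent support. Promoters came from RefSeq, GRCm38.p6.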

Additional observations from a re-analysis of the deposited data

Results flagged for a closer look

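Among 88 genes tested in both groups of 5, 12 had an array that stood out by Dixon's criterion (its gap to the nearest array over the group's range). The 88 are genes followed in the text, and some were named for their values on AIN replicate D. The count of about 9 that chance gives for unselected, independent genes is therefore no measure for the 12. AIN replicate D was the highest array for 5 of them, with ratios of 0.963 for Adipoq, 0.905 for Des, 0.889 for Retn, 0.766 for Fabp4 and 0.712 for Ighm. LRD replicate C was the lowest for Aldh1a1 (0.754), at 11.59 against 12.08 on the next array. In the other 6, LRD replicate D was the lowest for Ces2a (0.718), LRD replicate B the lowest for Arntl (0.725) and the highest for Jchain (0.718), AIN replicate E the lowest for Gstt2 (0.726), and AIN replicate C the lowest for Srebf1 (0.793) and the highest for Duox1 (0.724). These results are given as values.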

How the results depend on the processing

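The count of 133 called probe sets was 83 with all 59 arrays in 1 fit, 363 with array weights and 76 without both food arsenite arrays that stand apart, an alternative chosen after seeing the data. Leaving out 1 array gave 84 to 118, the lowest without AIN replicate F, and the other alternatives gave 96 to 192. A fit with the replicate block gave 96; arrays with the same letter did not deviate together (correlations -0.0797, -0.359, 0.04 and -0.0203 for C, D, E and F), and 0 of 4 letters correlated best with themselves. The 0 calls of the food level against 10 ppb in water became 1 with the arrays that stand apart as a block, and 0 to 1 on leaving out 1 array. Against the mean of the other levels they became 1 with a variance trend, 1 with that block, and 0 to 1 on leaving out 1 array. Against 100 ppb in water they became 4 with quantile normalization, 2 with a variance trend, 84 with that block, 51 without the arrays that stand apart, 219 with array weights and 0 to 376 on leaving out 1 array; against no arsenite they stayed 0 in every alternative run. Against 10 ppb in water and against the mean, the 1 call with that block was the same unnamed probe set. At the food level it averaged 2.29 on LRD and 1.83 on AIN, close to the floor. The causes were not tested. Of 58 called genes followed through 22 alternatives, 18 kept their call in all of them, 33 kept it whichever array was left out, and 0 changed sign. Signs turned only among uncalled genes followed: Srebf1 to 0.06 with the replicate block and between -0.31 and 0.21 on leaving out 1 array; Lpl to 0.02 without the arrays that stand apart and 0.02 without both in the food groups; Retn to 0.25 in both of these, 0.04 with array weights and between -0.84 and 0.22 on leaving out 1 array; Des to 0.13 in both and between -0.87 and 0.13 on leaving out 1 array. With 5 arrays a group, the smallest called difference was 0.36, so smaller ones may go uncalled. Pnpla5, Duox1, Jchain and most B cell markers lie close to the lowest levels measured.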
